A study of Homo sapiens with 2 samples.

Results

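The genes described here encode the machinery of mitosis: centromere (CENP) proteins, the kinetochore, the spindle checkpoint, mitotic kinases and cyclins, and the proteins of the spindle and of cytokinesis. They were 60 genes chosen by symbol from the 54261 rows of a read count table, 59 under their own symbol and KNL1 under its older symbol CASC5. RNA was sequenced from RKO, a human colorectal adenocarcinoma line, in 1 library from cells transfected with control siRNA (siNC; labelled wild type) and 1 library from cells transfected with siRNA against HNRNPM (labelled HNRNPM knockdown). HNRNPM encodes an RNA-binding protein that takes part in pre-mRNA splicing, and the comparison asks how the transcriptome differs when it is knocked down. How long the cells were transfected, and with how many siRNAs, is not given in the sources used here.

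The centromere is the part of a chromosome marked by nucleosomes that hold the histone H3 variant CENP-A, which its chaperone HJURP deposits. A constitutive inner kinetochore assembles on it, and in mitosis an outer kinetochore, built around the NDC80 complex, captures spindle microtubules while the spindle checkpoint delays anaphase until attachment is complete. Most of these genes are transcribed late in the cell cycle, through CCAAT boxes and an element called CHR that is bound by the DREAM and MMB-FOXM1 complexes, so their summed RNA level is a common readout of the share of dividing cells. In bulk RNA, fewer dividing cells and less RNA per dividing cell cannot be told apart.

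With 1 library per group the differences had no replicate check, and no p-value is given. Each ratio is siHNRNPM over control on the log2 scale, from CPM (reads scaled to 1000000 reads of the library), followed by its 95% exact Clopper-Pearson interval. These intervals cover counting error only, since PCR reads are not independent molecules and variation between cultures was not measured. A gene is called higher or lower where its interval excludes a ratio of 1. Reads in genes numbered 13056118 for siHNRNPM and 19931360 for control, and all 60 genes passed the filter of 1 CPM in at least 1 library, which kept 12925 genes. HNRNPM itself had 79.6 CPM against 144 CPM, or 55.2% of control, a direction that goes with the labels. The epithelial genes EPCAM, KRT8 and KRT18 and the intestinal regulator CDX2 had at least 106 reads in each library, whereas CDH1 had 1 and 10 reads, KRT19 had 1 in each, VIL1 had 0 and 1, and KRT20 and LGR5 had 0 in both. Of 14 liver markers, 11 had reads in the siHNRNPM library, 461 in all (35.2 CPM), and 5 in the control library, 15 in all (0.754 CPM). AFP (174 and 1), SERPINA1 (177 and 6) and ALB (77 and 0) held most of them, APOA1, TTR and FGG were at 0 in both libraries, and a count of 0 allows 0.229 CPM in the siHNRNPM and 0.151 CPM in the control library. The part of these markers in the results below was not tested.

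The promoters of CENPA and HJURP are shown because these genes, a histone variant and its dedicated chaperone, stood at opposite ends of the 60 ratios. Both are from the RefSeq promoter table (GRCh38.p14) and cover the 250 bases before the annotated start, written 5′ to 3′ on the strand of the gene, CENPA on the plus strand at chr2:26785806-26786055 and HJURP on the minus strand at chr2:233854536-233854785. The RefSeq start of CENPA used here lies 21.8 kb inside the span that GENCODE 29 gives the gene, which begins at position 26764289. Capitals mark CCAAT and the CHR-type sequences TTTGAA and TTTAAA, on either strand.
CENPA: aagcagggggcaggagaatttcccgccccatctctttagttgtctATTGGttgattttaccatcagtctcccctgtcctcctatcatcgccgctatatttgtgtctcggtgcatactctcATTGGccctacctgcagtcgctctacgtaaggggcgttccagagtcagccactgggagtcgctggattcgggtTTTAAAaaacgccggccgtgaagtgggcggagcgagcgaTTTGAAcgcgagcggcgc
HJURP: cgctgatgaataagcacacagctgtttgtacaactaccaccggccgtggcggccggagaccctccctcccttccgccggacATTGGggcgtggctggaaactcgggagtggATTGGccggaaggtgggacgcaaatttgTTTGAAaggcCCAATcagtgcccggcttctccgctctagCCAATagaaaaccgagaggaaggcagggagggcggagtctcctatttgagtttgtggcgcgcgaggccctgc
The CENPA window held CCAAT at 205 and 130 bases before the start, TTTAAA at 57 and TTTGAA at 18. The HJURP window held CCAAT at 169, 139, 101 and 72 bases before the start and TTTGAA at 111. Both promoters thus held both kinds of sequence, although the ratios of the genes differed in sign.

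As a set, the mitotic genes differed little between the libraries. They took 0.50% of the reads in the siHNRNPM library (exact 95% interval 0.496% to 0.504%) and 0.520% in the control library (0.517% to 0.523%), a log2 ratio of -0.06 (-0.08 to -0.05) for their summed reads. The median log2 ratio of the 60 genes was -0.03, against -0.01 over all 12925 kept genes and -0.03 over the 6688 kept genes with a mean CPM between 20.1 and 162, the 10th and 90th percentiles of the 60 genes. By the counting interval, 7 of the 60 were higher and 16 lower, and 37 intervals spanned a ratio of 1. Over all kept genes 22.0% were called higher and 26.1% lower, and over the genes of like mean CPM 22.1% and 31.2%, beside 11.7% and 26.7% of the 60. The share of lower calls was thus near the background and that of higher calls below it. With upper-quartile scaling, which adds 0.03 to every log2 ratio, the calls were 11 higher and 11 lower of 60, beside 25.8% and 22.2% over all genes kept under that scaling and 27.0% and 26.4% over the genes of like mean CPM. The ratios were also close to each other: 30 of the 60 lay within 0.1 of 0 on the log2 scale, against 34.7% of the genes of like mean CPM, and their quartiles were -0.12 and 0.06 against -0.18 and 0.12.

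**Figure D1:**
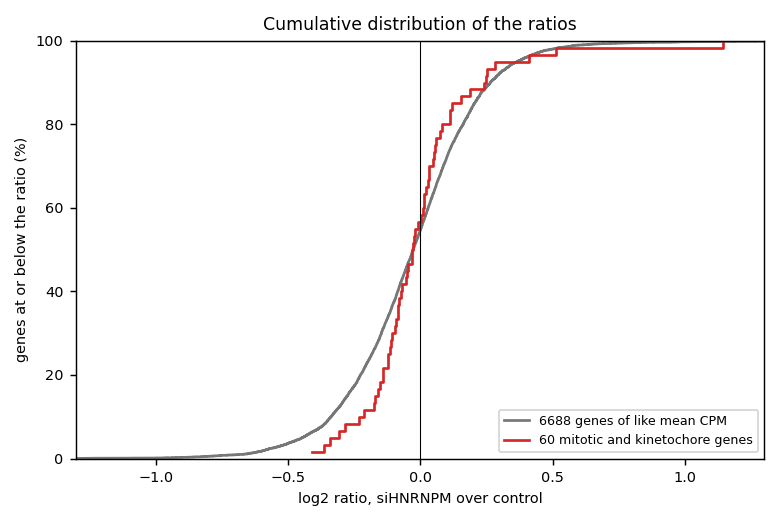
Cumulative share of genes (y axis, %) at or below each log2 ratio of siHNRNPM over control (x axis), for the 60 mitotic and kinetochore genes and the 6688 kept genes of like mean CPM. The red curve is steeper around 0, with quartiles of -0.12 and 0.06, and has 1 gene, CENPA, beyond a log2 ratio of 1.

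One gene, CENPA, passed a fold of 2 and none was lower by that fold. Over all kept genes 2.45% were higher and 1.49% lower by this rule, and among genes of like mean CPM 0.254% and 0.120%. The same gene alone passed a fold of 1.5, which 1.11% of the genes of like mean CPM passed as higher and 2.05% as lower. Over all 12925 kept genes, 646 passed a fold of 1.5 as higher and 589 as lower. CENPA had 526 reads (40.2 CPM) in the siHNRNPM library and 362 reads (18.2 CPM) in the control library. It was 2.21-fold higher (1.93 to 2.53), a log2 ratio of 1.14 (0.95 to 1.34), so the lower bound of its interval lay just inside a fold of 2. Of the 6688 genes of like mean CPM, 13, CENPA among them, had a ratio at least as high. The gene (ENSG00000115163.14 in GENCODE 29) spans positions 26764289 to 26801067 of chromosome 2 in GRCh38, on the plus strand. It shares 138 of its 1983 annotated exon bases with SLC35F6, a solute carrier gene on the same strand whose annotated span begins within a few bases of its own. SLC35F6 had 513 and 891 reads, a log2 ratio of -0.19 (-0.35 to -0.03), so the neighbour went the other way. The other protein-coding genes within 50 kb, KCNK3 and DPYSL5, had 0 and 1 reads and 0 in both libraries.

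HJURP, which binds CENP-A and loads it at centromeres, had the lowest ratio of the 60. It had 1111 reads (84.9 CPM) against 2240 reads (113 CPM), 1.33-fold lower, with a log2 ratio of -0.41 (-0.51 to -0.30). The gene lies at positions 233833416 to 233854566 of chromosome 2 on the minus strand, and 0.209% of its exon bases overlap another gene. Of the 6688 genes of like mean CPM, 425 (6.35%), HJURP among them, had a ratio at least as low, so a ratio as low as that of HJURP was far more common than one as high as that of CENPA. Per kilobase of exon, HJURP stood at 29.5 CPM per kilobase against 9.18 for CENPA in the control library, and at 22.2 against 20.3 in the siHNRNPM library. The length counts all annotated exon bases of a gene, which the transcripts present need not hold, so this scale compares genes only roughly. On this scale HJURP stood at 3.21 times CENPA in the control library and 1.10 times in the siHNRNPM library. Of the other genes of CENP-A loading, MIS18A, encoding Mis18-alpha, had a log2 ratio of 0.14 (-0.04 to 0.32). OIP5, encoding Mis18-beta, had 152 and 183 reads and a ratio of 0.34 (0.02 to 0.65), and 38.0% of its exon bases overlap other genes. MIS18A and OIP5 were named after their values were seen.

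**Figure D2:**
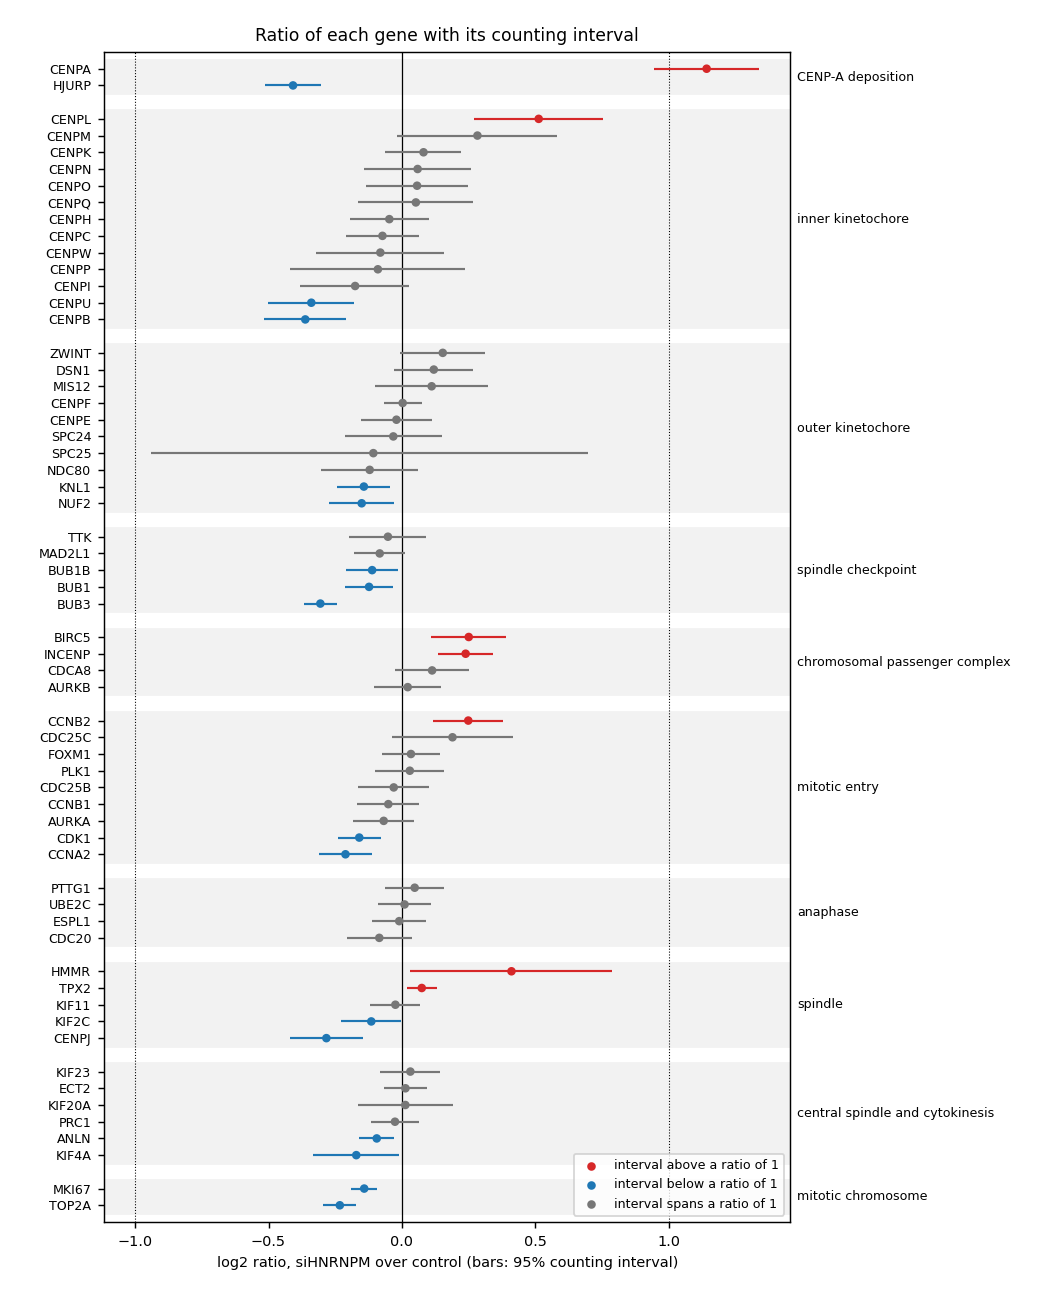
Log2 ratio of siHNRNPM over control (x axis) for each of the 60 genes, grouped by role, with points for the ratio, bars for the 95% counting interval, and dotted lines at a fold of 2. CENPA is the only point beyond the dotted lines, and most other intervals lie within 0.5 of 0.

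Most inner kinetochore genes had intervals that spanned a ratio of 1. These 13 genes encode the centromere DNA-binding protein CENP-B, the CENP-A-binding scaffold CENP-C and subunits of the constitutive centromere-associated network. Their median log2 ratio was -0.05, with 1 higher, 2 lower and 10 spanning (76.9%). Over all kept genes 51.8% spanned, and over the genes of like mean CPM 46.7%. The median mean CPM of the 13 genes was 26.1, against 59.4 for the 60, and counting intervals widen at lower counts. CENPL, whose product pairs with CENP-N to bind the CENP-A nucleosome, had 278 reads (21.2 CPM) against 296 reads (14.9 CPM), a log2 ratio of 0.51 (0.27 to 0.75). Its partner CENPN, with 22.8% of its exon bases in other genes, had 349 and 509 reads and a ratio of 0.06 (-0.14 to 0.26). Only CENPL of the pair was thus called, and the difference between them was not tested. CENPM, with few reads (169 and 211), had 0.28 (-0.02 to 0.58).

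CENPB and CENPU were the lower inner kinetochore genes. CENPB had 531 reads (40.6 CPM) against 1037 reads (52.2 CPM), a log2 ratio of -0.36 (-0.52 to -0.21). Its start on chromosome 20 lies 82 bases from that of CDC25B, which is transcribed in the other direction and encodes a phosphatase that activates CDK1. CDC25B had 761 and 1181 reads, 58.2 against 59.4 CPM, and a log2 ratio of -0.03 (-0.16 to 0.10), so the neighbouring starts went with different ratios. CENPU, a subunit that recruits PLK1, had 478 reads (36.5 CPM) against 919 reads (46.2 CPM), a log2 ratio of -0.34 (-0.50 to -0.18). Other genes overlap 11.7% of its exon bases, with the largest overlap from PRIMPOL on the opposite strand. The other CENP-O group subunits, CENPO, CENPP and CENPQ, had ratios of 0.06, -0.09 and 0.05, each with an interval that spanned a ratio of 1. CENPC, CENPH, CENPI, CENPK and CENPW ranged from -0.18 for CENPI to 0.08 for CENPK, and none was called.

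The outer kinetochore genes differed little between the libraries. Their log2 ratios ran from -0.15 to 0.15, with 0 higher, 2 lower and 8 spanning among 10 genes, and a median of -0.03. Over all kept genes 22.0% were called higher and 26.1% lower. The lower genes were NUF2, a microtubule-binding subunit of the NDC80 complex, at -0.15 (-0.27 to -0.03), and KNL1, the scaffold for checkpoint proteins, at -0.14 (-0.24 to -0.04). NDC80 had 408 and 674 reads, 31.2 against 33.9 CPM, and a ratio of -0.12 (-0.30 to 0.06). SPC24 had -0.03 (-0.21 to 0.15), so no NDC80 complex subunit was higher. SPC25 had 22 and 36 reads, and its interval from -0.94 to 0.70 was the widest of the 60. On the same rough scale per kilobase of exon, NDC80 stood at 9.57 times SPC25 in the control library and 9.48 times in the siHNRNPM library. Both are subunits of the same complex. SPC25 is the only one of the 60 genes with a GENCODE transcript outside the primary assembly, where reads can be assigned differently, and whether its count is low for that was not tested. The MIS12 complex genes MIS12 and DSN1 and the KNL1 partner ZWINT had ratios from 0.11 to 0.15 with intervals that spanned a ratio of 1. The kinetochore motor gene CENPE and the corona protein gene CENPF had -0.02 and 0.00, from 769 and 1185 reads and from 2634 and 3994 reads.

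The 5 spindle checkpoint genes of the set all had ratios below 1, and its 4 passenger complex genes all had ratios above 1. Over all 12925 kept genes, 6692 had ratios below 1 and 6233 above. The 5 checkpoint genes had a median of -0.11, and 3 of them were called lower, beside 26.1% of all kept genes. Outside the set, 20 other checkpoint and anaphase-promoting complex genes went both ways, with 4 higher and 9 lower. BUB3, whose product brings BUB1 and BUBR1 to kinetochores, had 3244 reads (248 CPM) against 6092 reads (306 CPM), a log2 ratio of -0.31 (-0.37 to -0.24). The kinase genes BUB1 and BUB1B, the latter encoding BUBR1, had -0.12 (-0.21 to -0.03) and -0.11 (-0.21 to -0.02). MAD2L1, which encodes the anaphase inhibitor MAD2, had -0.08 (-0.18 to 0.01), and the MPS1 kinase gene TTK had -0.05 (-0.20 to 0.09). BUB3 was therefore further from a ratio of 1 than the other 4. The difference between the checkpoint and passenger groups was not tested.

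The chromosomal passenger complex places Aurora B kinase at inner centromeres, where it corrects wrong attachments. Its 4 genes had a median log2 ratio of 0.18, with 2 higher, 0 lower and 2 spanning, beside 22.0% of all kept genes called higher. INCENP, the scaffold, had 1378 reads (105 CPM) against 1774 reads (89.2 CPM), a ratio of 0.24 (0.14 to 0.34). BIRC5, which encodes survivin, had 740 reads (56.5 CPM) against 945 reads (47.5 CPM), a ratio of 0.25 (0.11 to 0.39). CDCA8, encoding borealin, had 0.11 (-0.03 to 0.25), and the kinase gene AURKB had 862 and 1290 reads and 0.02 (-0.10 to 0.15). INCENP and BIRC5 were thus 1.18-fold and 1.19-fold higher, beyond counting error but far from a fold of 2.

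Genes of mitotic entry went in both directions. The median of these 9 genes was -0.03, with CCNB2 called higher, CCNA2 and CDK1 lower, and 6 spanning. Over all kept genes 22.0% were called higher and 26.1% lower. CCNB2, encoding cyclin B2, had 847 reads (64.7 CPM) against 1083 reads (54.5 CPM), a log2 ratio of 0.25 (0.12 to 0.38). CCNB1, encoding cyclin B1, had 974 and 1533 reads and a ratio of -0.05 (-0.17 to 0.07). The cyclin A2 gene CCNA2 had -0.21 (-0.31 to -0.11), and CDK1, the kinase gene these cyclins serve, had -0.16 (-0.24 to -0.08), from 1949 and 3308 reads. The kinase genes PLK1 and AURKA had 0.03 (-0.10 to 0.16) and -0.07 (-0.18 to 0.04). FOXM1, the transcription factor gene that drives many of the others, had 1124 reads (85.9 CPM) against 1668 reads (83.9 CPM), a ratio of 0.03 (-0.08 to 0.14). The phosphatase gene CDC25C had 0.19 (-0.04 to 0.42). All 4 genes of anaphase spanned a ratio of 1, as did 51.8% of all kept genes. They were the anaphase-promoting complex activator gene CDC20 at -0.08, its ubiquitin-conjugating partner UBE2C at 0.01, the securin gene PTTG1 at 0.05 and the separase gene ESPL1 at -0.01.

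**Figure D3:**
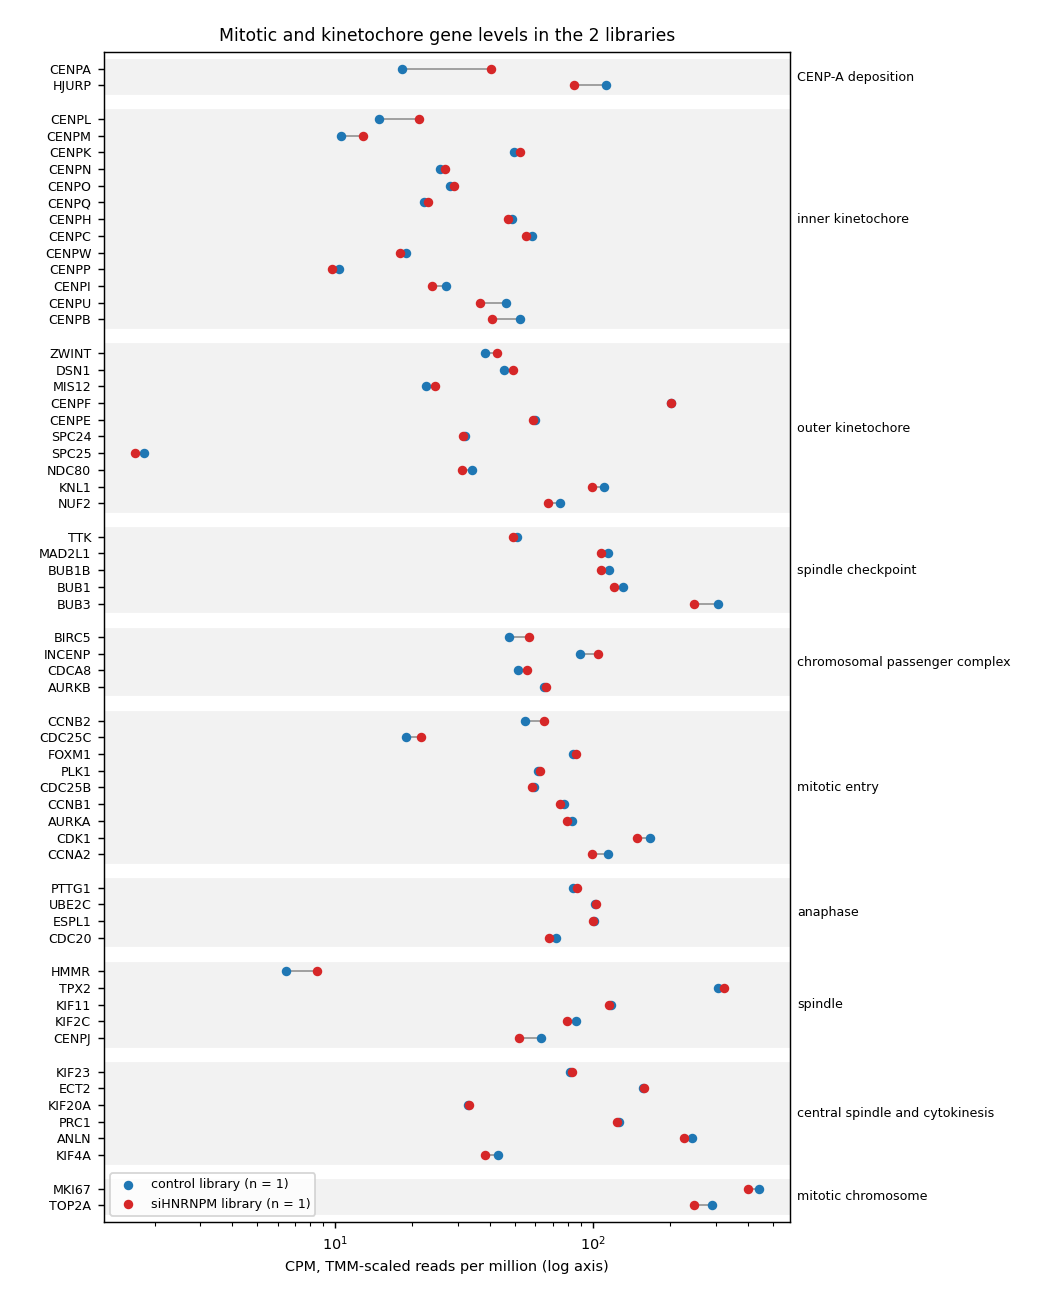
Level of each of the 60 genes in CPM (x axis, log scale) in the control library (blue) and the siHNRNPM library (red), joined by a line and grouped by role. The pairs of points nearly coincide for most genes, and CENPA, at 18.2 and 40.2 CPM, has the longest line.

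Spindle genes held the most abundant member per length and some of the least abundant. TPX2, which activates Aurora A and nucleates microtubules, had 4236 reads (324 CPM) against 6112 reads (307 CPM), a log2 ratio of 0.07 (0.02 to 0.13). Its level per kilobase was the highest of the 60, followed by UBE2C and PTTG1. HMMR, which encodes a hyaluronan receptor and spindle protein that interacts with TPX2, had 112 reads (8.56 CPM) against 128 reads (6.44 CPM), a ratio of 0.41 (0.03 to 0.79). HMMR ranked 58th of the 60 in level per kilobase, above CENPP and SPC25. The interval of each of these spindle genes just excluded a ratio of 1. The kinesin gene KIF11, needed for bipolar spindles, had -0.02 (-0.12 to 0.07), and the depolymerase gene KIF2C had -0.11 (-0.23 to -0.00). CENPJ, which despite its name encodes a centriole protein and not a centromere protein, had 681 reads (52.0 CPM) against 1259 reads (63.3 CPM), a ratio of -0.28 (-0.42 to -0.15).

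**Figure D4:**
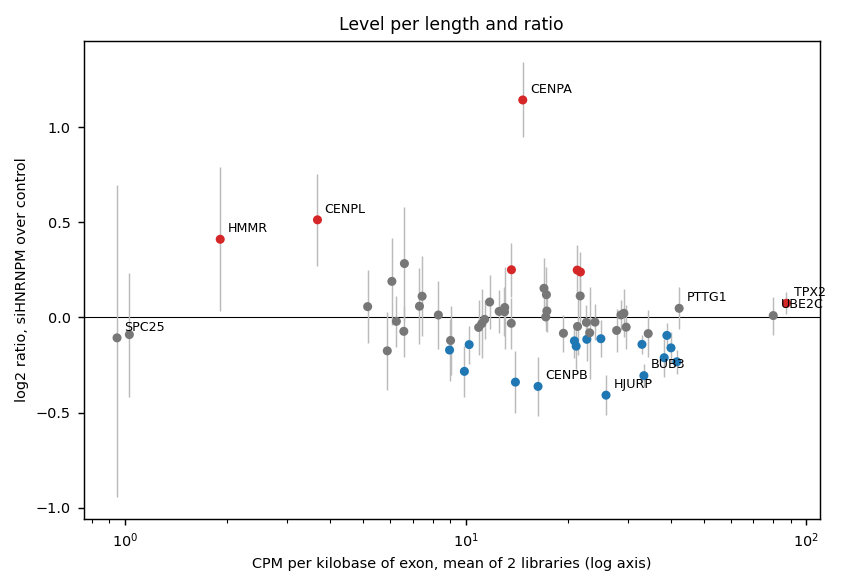
Log2 ratio with its 95% counting interval (y axis) against level in CPM per kilobase of exon, as the mean of both libraries (x axis, log scale), for the 60 genes. Red points are called higher, blue lower and grey spanned a ratio of 1. The higher genes HMMR and CENPL lie among the 4 lowest levels, CENPA lies mid-range, and the 3 highest levels have ratios from 0.01 to 0.07.

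Genes of the central spindle and cytokinesis and of mitotic chromosomes completed the set. Of 6 cytokinesis genes 0 were higher, 2 were lower and 4 spanned, beside 22.0% higher and 26.1% lower over all kept genes. The lower ones were the kinesin gene KIF4A at -0.17 (-0.33 to -0.01) and the anillin gene ANLN at -0.09 (-0.16 to -0.03). The centralspindlin gene KIF23, the RhoA activator gene ECT2, the kinesin gene KIF20A and the bundling protein gene PRC1 had ratios between -0.03 and 0.03. MKI67, encoding the proliferation marker Ki-67, was the most abundant of the 60 by CPM. It had 5254 reads (401 CPM) against 8804 reads (443 CPM), a log2 ratio of -0.14 (-0.19 to -0.09). TOP2A, encoding the topoisomerase that untangles sister chromatids, had 3232 reads (247 CPM) against 5770 reads (290 CPM), a ratio of -0.23 (-0.30 to -0.17). MKI67 and TOP2A were thus lower beyond counting error, 1.10-fold and 1.18-fold, beside 26.1% of all kept genes called lower. Their mean CPM, 422 and 269, lay above the range of like mean CPM, and at such levels small differences pass the counting interval. Of the 60 genes 16 were lower and 7 higher, BIRC5, CCNB2 and TPX2 among the higher, whereas PLK1, UBE2C, FOXM1 and AURKB spanned a ratio of 1.

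Near-copies held few reads, whereas some genes shared a large part of their exon bases with other genes. The table held 18 rows for pseudogenes or close paralogs of the 60 genes, and 7 had a read, of which UBE2CP5 had the most, with 55 and 93 reads. The other 6 had at most 3 reads in either library. Of the 60 genes, 8 had more than 10% of their exon bases in another gene. Of these 0 were higher, 2 lower and 6 spanned, beside 22.0% higher and 26.1% lower over all kept genes. The 8 were PRC1 (58.4%), CENPP (42.7%), CENPO (31.4%), CENPN (22.8%), FOXM1 (15.9%), PLK1 (12.5%), CENPU (11.7%) and BUB1B (10.2%). How far their ratios hold reads of the other genes was not tested. Whether reads were counted by strand was not given in the sources used here, so reads from overlapping genes on opposite strands cannot be told apart.

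The sequences marked in the CENPA and HJURP promoters were common in the set. RefSeq promoters, from 250 bases before to 50 after the start, were matched by symbol for 48 of the 60 genes. CCAAT was present on either strand in 35 of the 48 (72.9%), against 35.7% of all 27305 promoters. TTTGAA or TTTAAA was present in 33 (68.8%), against 24.3% of all promoters. TTTGAA (searched with its reverse complement TTCAAA) alone was in 28 (58.3%, against 15.4%) and the palindrome TTTAAA in 11 (22.9%, against 12.3%). The median log2 ratio was -0.02 for the 33 genes with a CHR-type sequence and -0.03 for the 15 without. It was -0.01 for the 35 genes with CCAAT and -0.09 for the 13 without. All 4 matched genes that were called higher (CENPA, CCNB2, INCENP and HMMR) held both kinds of sequence, as did HJURP, TOP2A, KIF4A, CDK1 and MKI67 among the lower ones. Of the matched lower genes, 8 held CCAAT and 5 did not, and 9 held a CHR-type sequence and 4 did not. The higher genes CENPL, BIRC5 and TPX2 had no matched promoter. Of all 48 matched genes, 72.9% held CCAAT and 68.8% a CHR-type sequence, so 4 higher genes with both say little. A link between these sequences and the calls was not tested. A match is a description of the letters and not evidence of a bound site.

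Other mitotic genes, in 7 lists that hold none of the 60, spread more widely around a ratio of 1. Of 107 listed genes 103 were kept, with a median log2 ratio of -0.04. Of these 16 were higher (15.5%), 35 were lower (34.0%) and 52 spanned, beside the 22.1% and 31.2% of genes of like mean CPM given above. That CPM range was set from the 60 genes, whereas the mean CPM of the 103 ran from 0.838 to 659 (median 60.3). The quartiles of the 103 were -0.18 and 0.10, close to those of the genes in that range, whereas those of the 60 were -0.12 and 0.06. The difference in spread was not tested. Of 16 other kinetochore and CENP-A loading genes 4 were higher and 4 lower (median -0.04), with the checkpoint recruiter gene ZW10 at 0.41 (0.19 to 0.62) and CENPX, listed as STRA13, at 0.35 (0.13 to 0.56). Of 20 checkpoint and anaphase-promoting complex genes 4 were higher and 9 lower (-0.05), with MAD1L1, which anchors MAD2 at kinetochores, at -0.55 (-0.90 to -0.21) and ANAPC4 at -0.45 (-0.63 to -0.26). Of 15 cohesin genes 1 was higher and 3 lower (-0.07), with the cohesin regulator gene PDS5A at -0.40 (-0.48 to -0.32) and the ring subunit gene RAD21 at -0.22 (-0.26 to -0.19), for which 14.2% of exon bases overlap other genes.

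Condensin, which compacts mitotic chromosomes, had 2 of 8 genes higher and 2 lower (median 0.03), with SMC4 at -0.21 (-0.28 to -0.15), though 25.6% of its exon bases overlap other genes, and NCAPH2 at 0.20 (0.03 to 0.36). Of 20 other spindle and cytokinesis genes 1 was higher and 7 lower (-0.05), with GTSE1 at -0.33 (-0.48 to -0.17). The higher one, the kinesin gene KIF15, was the single gene of the 103 past a fold of 2, at 1.43 (0.17 to 2.79), but it rested on 16 and 9 reads and has a copy outside the primary assembly. Of 12 regulators of the DREAM and MMB complexes 1 was higher and 6 lower (-0.09), with LIN52 at -0.38 (-0.66 to -0.11) and LIN9 at 0.30 (0.08 to 0.52). Beside the counts of these lists, 22.0% of all kept genes were called higher and 26.1% lower.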

How the data were processed

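The authors deposited whole-number read counts per gene symbol for 2 RKO libraries, with no normalization. HISAT2 2.0.4 and GRCh38 are listed without a role, per the submitters' processing notes, whereas the counter, the annotation and any use of strand are not given in the sources used here. Groups came from the treatment labels and columns from the titles. Counts were scaled by TMM (edgeR 4.0.16, R 4.3.3; factors 1.00 and 0.998). Genes that reached a CPM of 1 in either library were kept, and a count of 0 was set to 0.5 in a ratio. Intervals are 95% Clopper-Pearson intervals of each gene's split of reads (SciPy 1.17.1). The procedure was also run on counts simulated with counting error alone, a check that cannot speak to variation between cultures or PCR copies. Exon lengths (all annotated exon bases of a gene, each counted once) and overlaps came from GENCODE 29 on GRCh38. Full values were given for genes past a fold of 1.5, the 6 in each direction whose interval lay farthest from 0 and the 3 most abundant, with up to 2 genes from each other list, and further genes were named as examples of their role, some with full values (such as FOXM1, CDC25B and NDC80). The members and lists were chosen with earlier results of these data known.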

Additional observations from a re-analysis of the deposited data

How the results depend on the processing

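With 1 library per group, no interval here covers variation between cultures, and depth limits genes such as SPC25 and HMMR. No paired analysis was possible because each group has 1 library. With upper-quartile scaling 11 genes were higher in place of 7, 11 were lower in place of 16, and the median log2 ratio was 0.0039 in place of -0.03. Without CENPA, an alternative chosen after seeing the data, 0 genes were at least 2-fold and 0 at least 1.5-fold higher. With a 99% interval 5 genes were higher and 12 lower, beside 16.3% and 20.2% of all kept genes, and HMMR (-0.08 to 0.90) and TPX2 (-0.00 to 0.15) spanned a ratio of 1. Of 84 values of 14 named genes under total-count, DESeq2 1.42.0 and upper-quartile scaling, both other CPM filters and the 99% interval, the other 82 kept their call. The CPM filters only drop genes, so they could not change a call. Most of the 14 genes were also named because their intervals lay far from 0, so the 82 are no measure of robustness. The log2 ratio of summed reads ran from -0.07 to -0.03 under the scalings, with its interval below 0.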

Other observations

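Of the 12 genes in the list of other genes of mitotic entry and exit, 3 were higher and 4 lower (median 0.04). Over all kept genes 22.0% were called higher and 26.1% lower. Of the 12 genes, 5 encode parts of the Greatwall pathway, which restrains the phosphatase PP2A-B55 during mitosis. ENSA, whose product inhibits PP2A-B55 once phosphorylated, had 3676 reads (281 CPM) in the siHNRNPM library and 3882 reads (195 CPM) in the control library, a log2 ratio of 0.52 (0.46 to 0.59). Its paralog ARPP19 had 3966 reads (303 CPM) against 5279 reads (265 CPM), a ratio of 0.19 (0.13 to 0.25). PPP2R2A, encoding a B55 subunit of the phosphatase, had 1948 reads (149 CPM) against 2294 reads (115 CPM), a ratio of 0.37 (0.28 to 0.46). PPP2R2D, encoding another B55 subunit, had 0.11 (-0.08 to 0.29). The Greatwall kinase gene MASTL had 724 reads (55.3 CPM) against 1351 reads (67.9 CPM), a ratio of -0.30 (-0.43 to -0.17). Of its exon bases 12.2% overlap another gene, YME1L1 on the opposite strand. ENSA and PPP2R2A were named by the rule for that list, whereas ARPP19, PPP2R2D and MASTL, and the grouping itself, were chosen after the values were seen, so nothing is read from their directions together.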
